A study of Danio rerio with 2 samples.

Results

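Tubulins, microtubule motors and their partner proteins were examined in pigment cells from the fins of adult zebrafish, on 2 expression arrays. The genes were taken by symbol: alpha, beta and gamma tubulins and their complex proteins, kinesins, kinesin light chains, cytoplasmic dynein subunits, dynactin, the MAP1 family, end-binding proteins, stathmins and tubulin folding cofactors. The rule found 83 probe sets of 60 genes among 15502 transcript probe sets, of which 10795 carry a single gene symbol and cover 8793 genes. By role there were 16 tubulin genes (counting the gamma tubulin complex proteins), 30 motor genes (kinesin, dynein or dynactin subunits) and 14 others.

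The comparison the study names is melanophores, the black cells that hold melanin, against xanthophores, the yellow cells that hold pteridines and carotenoids. Each array held RNA from 1 preparation of wild-type fish over 2 months old, bought from a pet shop. The protocol, worded alike for both samples, names 1000 fish whose caudal and anal fins were digested with trypsin and collagenase. The series states centrifugation or cell sorting as the ways of separation, without tying either to a sample. Titles and source fields contradict each other. The sample with melanophores in its title, here the M array, has xanthophores as its source and cell type, and the sample with xanthophores in its title, here the X array, has melanophores. Directions below are those between the M and the X array and not between known cell types.

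Microtubules are hollow filaments of alpha and beta tubulin that grow out from gamma tubulin complexes near the cell centre. In fish and frog pigment cells, pigment organelles ride on them. Cytoplasmic dynein, helped by dynactin, pulls the organelles to the centre and pales the animal, while kinesins carry them outwards and darken it. Other kinesins build the mitotic spindle and are expressed mainly in dividing cells.

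Values are MAS 5.0 signal intensities, Affymetrix's summary of the brightness of a probe set on a linear scale. Such signals rank no gene against another, because probe sets bind with different strength, so each was read only between arrays. With 1 array per title no test was possible and no difference has a replicate check. A signal below its array's median (47.2 on M, 43.5 on X) was raised to that floor. A gene was compared when its brighter signal reached the 75th percentile of its array (234 on M, 173 on X), and a gene with several probe sets was read from its brightest. Compared probe sets of the same gene differed in log2 ratio with an SD of 0.37 over 201 genes, a factor of 1.29. This is a spread between probe sets on the same arrays and does not measure error between arrays or preparations. The M array was the brighter one: its 18 hybridisation spike-in probe sets had log2 ratios from 0.18 to 0.97 with a median of 0.38, and the median over the 2929 compared genes was 0.46. Of a pair of signals, M comes first.

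Marker genes went against the titles or were mixed. Of 6 compared xanthophore genes 5 were 2-fold brighter on M, among them the carotenoid cleavage enzyme bco1 (3076 and 95.2). The melanin list had 2 compared genes, 1 on each side: the melanin enzyme dct stood at 50.1 and 590.1, and rab32a at 2752 and 1091. Other cells' markers differed too: 9 of 10 compared connective tissue and bone genes were 2-fold brighter on X, and 3 of 3 endothelial genes on M. Of 11 compared keratinocyte genes 3 were 2-fold brighter on M and none on X, and of the red cell genes 2 of 2 on X. As deposited, 21.1% of all compared genes were 2-fold brighter on M and 6.18% on X. With the spike-ins set equal, the keratinocyte gene pkp3a fell to 1.68-fold on M, and agr2 reached 2.37-fold on X. In bulk RNA, fewer cells of a type and less RNA per cell cannot be told apart. Summed as deposited over the genes named on the array, connective tissue signals were 11303 and 23015 and endothelial signals 4036 and 940.4. Keratinocyte signals were 26148 and 22889, with krt8 alone at 11558 and 10947. Red cell signals were 159 and 1269.9, with hbaa1 alone at 24.9 and 956.5. Of the 7 red cell genes, 5 lay under both floors. Such sums weigh the brightest probe sets most. The connective tissue sum includes thy1, the 1 compared gene of that list brighter on M, at 5787 and 693. The median log2 ratio of the compared keratinocyte genes was 0.08, or -0.30 after scaling to the spike-ins. The part of these cell types in the values below was not tested.

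Of the family's 60 genes, 27 were compared, 13 were too dim to compare but over the floor on at least 1 array, and 20 lay under the floor on both. Those 20 made up 33.3% of the family, beside 37.4% of all named genes under both floors. Of the 27 compared genes, 3 reached 2-fold towards M, beside 21.1% of all compared genes, and 1 towards X, beside 6.18%. At 1.5-fold the counts were 8 towards M (41.7% of all compared genes) and 3 towards X (11.0%). The 2-fold counts moved with the scaling, as did the shares of all compared genes. With the medians of bright probe sets set equal, they were 1 towards M (6.84% of all compared genes) and 6 towards X (13.5%). With ribosomal protein genes set equal, they were 9 towards M (48.9%) and 0 towards X (3.88%). As deposited, the 4 genes were the kinesin light chain klc4, the dynein light chain dynll2b and the microtubule-associated protein map1sa on M, and the alpha tubulin tuba8l2 on X. The other 23, or 85.2%, lay within 2-fold, as did 72.7% of all compared genes. At 4-fold there was 1 member on M (klc4; 3.72% of all compared genes) and none on X (2.15%), and after scaling to the spike-ins klc4 fell just short of it.

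**Figure D1:**
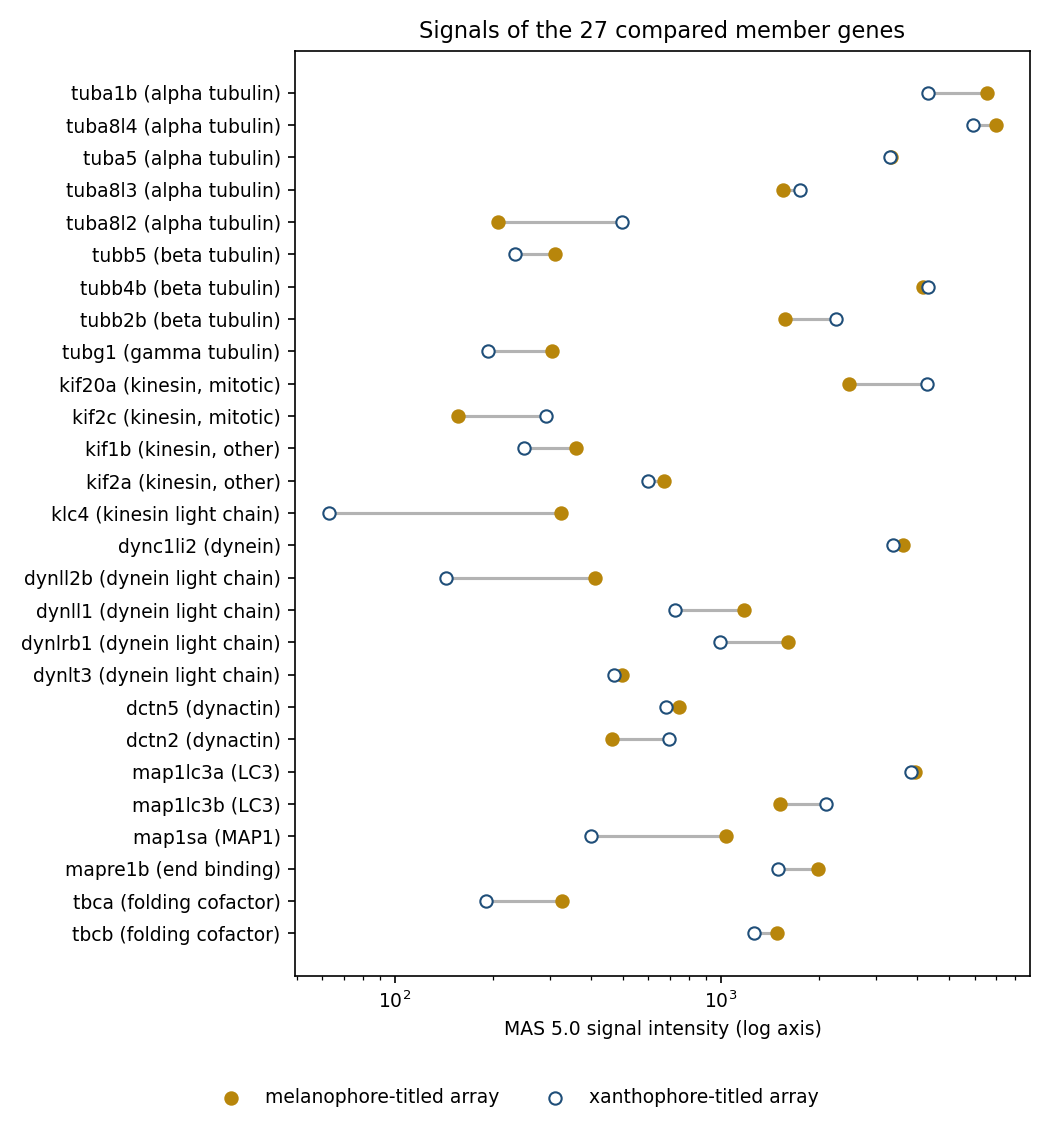
MAS 5.0 signals (log axis) of the 27 compared genes on both arrays, 1 line per gene, with the filled point for the melanophore-titled (M) and the open point for the xanthophore-titled (X) array. The widest gaps are those of klc4, dynll2b and map1sa, with M to the right, and tuba8l2, with X to the right; gaps between rows compare different probe sets and carry no meaning.

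The median log2 ratio of the 27 compared members was 0.16, which is 0.30 below the 0.46 of all compared genes, and 18 of the 27 lay under that all-gene median. The sign of the members' own median followed the scaling: it was -0.22 after scaling to the spike-ins, -0.15 after quantile normalization and 0.66 with ribosomal protein genes set equal. The distance to all compared genes kept its sign, running from -0.14 to -0.32 over the scalings. With genes admitted from the 50th percentile it was only -0.02.

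**Figure D2:**
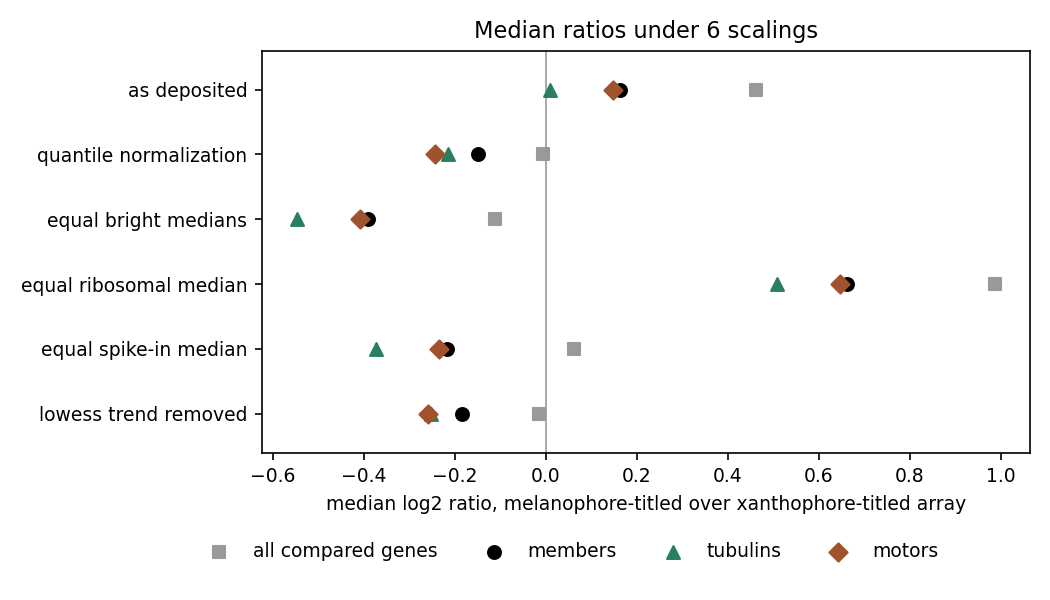
Median log2 ratio of all compared genes, of the compared members, and of tubulins and motors among them, with the signals as deposited and under 5 other scalings. In each scaling the members, tubulins and motors lie to the left of all compared genes, while the side of 0 on which they lie changes.

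Single genes were followed in 12 alternatives. The filters cannot change a gene's ratio, and other floors and probe set treatments changed few, so sign changes came from the 5 scalings alone. For 13 of the 27 genes the direction was the same under all 5. These were tuba1b, tuba8l2, tubb2b, tubg1, kif2c, kif20a, klc4, dynll1, dynll2b, dynlrb1, dctn2, map1sa and tbca. The other 14 changed sign under at least 1 scaling, and a direction given below for any of them holds only for the signals as deposited.

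Alpha tubulin, one partner of the tubulin dimer, was represented by 8 genes, of which 5 were compared. The gene tuba1b stood at 6529.9 and 4321, a log2 ratio of 0.60 that ran from 0.04 to 1.09 over the scalings. Its second compared probe set, of a kind open to cross-hybridisation, gave 3442 and 2344, or 0.55, so both were brighter on M by a like amount. The signals of tuba8l4 were 6998 and 5951, those of tuba5 3315 and 3295, and those of tuba8l3 1550.3 and 1752. As deposited these 3 genes differed by less than the SD between probe sets. Once the spike-ins were set equal, tuba8l3 was at -0.56 and tuba5 at -0.37, at or beyond it.

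The exception among alpha tubulins was tuba8l2, at 207 and 499, which is 2.41-fold brighter on X. Its log2 ratio of -1.27 stayed between -0.77 and -1.82 over the scalings. It reached 2-fold in all of them except the one that sets ribosomal protein genes equal, where it was 1.70-fold. Of all compared genes 4.81% had a ratio as low or lower. It rests on 1 probe set. The remaining alpha tubulins were dim: tuba2 at 60.2 and 36.0, tuba4l at 44.8 and 60.8, and tuba7l at 24.8 and 36.9, under the floor on both arrays. As deposited, no alpha tubulin was 2-fold brighter on M, while tuba1b was 2.13-fold brighter there with ribosomal protein genes set equal.

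Beta tubulin, the partner that faces the growing end, had 5 genes, 3 of them compared. The gene tubb4b stood at 4171 and 4311 by a probe set open to cross-hybridisation, and its other probe set at 3227 and 3767. With probe sets that may match several transcripts left out, tubb4b had no value. For tubb2b the signals were 1579 and 2248, again by a probe set open to cross-hybridisation, and 1407 and 2314 by its other one. By these X was the brighter array by 1.42-fold and 1.64-fold. Over the scalings its log2 ratio ran from -1.07 with equal bright medians to -0.01 with ribosomal protein genes set equal. The third compared gene, tubb5, stood at 311 and 234, but its second probe set was under the floor on both arrays at 24.8 and 23.8. The genes tubb2 (20.7 and 22.6) and tubb4bl (16.9 and 12.1) also lay under the floor.

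Gamma tubulin, which seeds new microtubules, had 1 compared gene, tubg1, at 303 and 193 (log2 ratio 0.65, and 0.27 after scaling to the spike-ins). The complex protein tubgcp3 was too dim to compare, at 195 and 86.1, and its second probe set gave 58.1 and 47.0. The complex protein tubgcp2 was under the floor on both arrays, at 29.6 and 14.5. Over the 9 compared tubulins the median log2 ratio was 0.01, or -0.37 after scaling to the spike-ins, 0.45 below all compared genes as deposited.

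Probe sets assigned to several genes were kept out of these counts. There were 4: a pair for tuba1a and tuba1b together, 1 for tuba1c and tuba1b and 1 for tubgcp5 and cyfip1. Of the pair, 1 stood at 587 and 295 and the other at 215 and 165. The tuba1c and tuba1b set was under the floor on both arrays (19.0 and 41.2). The last stood at 149 and 47.1, under the level for comparison. The genes tuba1a and tuba1b are neighbours in the zebrafish annotation, as are tuba8l3 and tuba8l5.

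**Figure D3:**
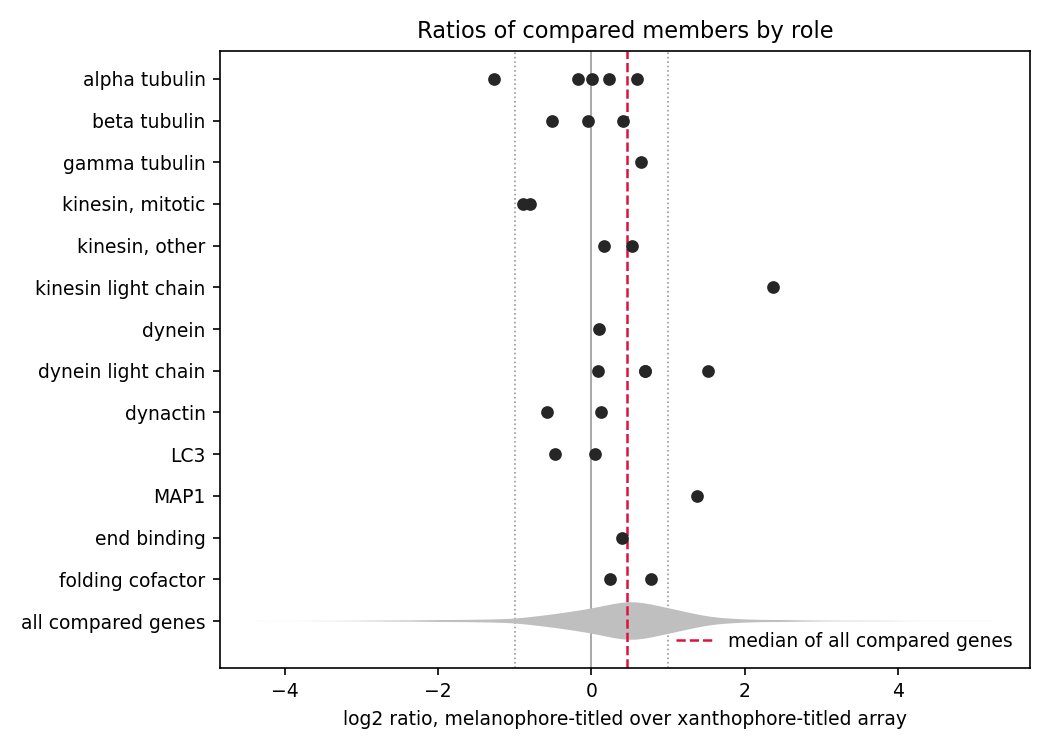
Log2 ratio (M over X) of each compared member by role, 1 point per gene, above the distribution of all 2929 compared genes in grey, whose median of 0.46 is the dashed line. Dotted lines mark 2-fold either way; the kinesin light chain lies farthest to the right at 2.37 and tuba8l2 farthest to the left at -1.27.

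Kinesin heavy chains are the ATP-driven motor subunits. Of 15 such genes 4 were compared, and none reached 2-fold with the signals as deposited. Among kinesins not grouped here as mitotic, kif1b, which carries vesicles and mitochondria in mammalian neurons, stood at 359 and 248. Its second probe set was under the floor at 3.1 and 1.5. The microtubule depolymerase kif2a stood at 671 and 599. These differences amount to log2 ratios of 0.53 and 0.16, and both changed sign under at least 1 scaling.

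The motor subunit kif3a belongs to the heterotrimeric kinesin that disperses pigment organelles in frog melanophores. It was too dim to compare, at 113 and 98.6. Its partner adaptor kifap3a, which is not a member of the family by the rule, stood at 264 and 175. The conventional kinesin kif5aa was under the floor on both arrays (11.1 and 5.1), as was kif7, a kinesin of cilia and Hedgehog signalling, at 35.4 and 24.7. The kinesin kif19, which acts at cilia in mammals, was dim at 57.0 and 43.8.

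The largest ratio of the family was that of klc4, a light chain that couples conventional kinesin to its cargo. Its signals were 323 and 62.7, 5.15-fold brighter on M, and 2.63% of all compared genes had a ratio as high or higher. Scaled to the spike-ins, it was 3.96-fold brighter. It was the only member at 2-fold or more under all 5 other scalings. Over all 12 alternatives its lowest value was a bound of at least 3.46-fold, from the highest floor, and its highest 7.28-fold. The second klc4 probe set lay under the floor on both arrays, at 46.4 and 25.2, so the value rests on 1 probe set. The other light chain, klc1b, was dim at 118 and 81.1.

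Of the 9 kinesins grouped under mitosis and cell division, 7 lay under the floor on both arrays, beside 37.4% of all named genes. These 7 were kif4, kif11, kif14, kif15, kif18a, kif20bb and kif23. By the probe set read for each of them, signals ran from 10.3 to 24.4 on M and from 4.8 to 33.0 on X. Some of their other probe sets were dimmer, such as 1 of kif4 at 2.9 and 1.2. The remaining pair had 1 bright probe set each. The bright probe set of kif20a, a motor of cytokinesis, gave 2475 and 4293, 1.73-fold brighter on X, while its other probe set gave 1.4 and 3.2. For kif2c, a depolymerase at the centromere, the values were 157 and 292 on 1 probe set, 1.86-fold brighter on X. Its other probe sets gave 9.9 and 9.8, and 9.6 and 2.6. For both genes the value therefore rests on 1 probe set, and the dimmer ones give no ratio. Whether the bright probe sets measure the genes they are assigned to was not tested. In 4 of the 5 other scalings both bright probe sets were 2-fold or more brighter on X. Once the spike-ins were set equal, that of kif20a was at 2.26-fold and that of kif2c at 2.42-fold.

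Markers of dividing cells were mixed. Of 39 listed proliferation genes named on the array, 24 lay under the floor on both, beside 37.4% of all named genes, among them mki67 (21.6 and 32.2), top2a (40.0 and 34.0), cdk1 (12.3 and 10.0), ccnb1 (29.4 and 21.4) and plk1 (2.9 and 10.6). The 4 that were compared lay within 2-fold as deposited: pcna (1903 and 1344), ccnd1 (623 and 492), mcm7 (402 and 356) and aurka (138 and 219). With the spike-ins set equal, aurka was 2.07-fold brighter on X and the others stayed within 2-fold. The annotation places cdc23 across part of kif20a, and the probe set of cdc23 stood at 13.4 and 16.4.

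**Figure D4:**
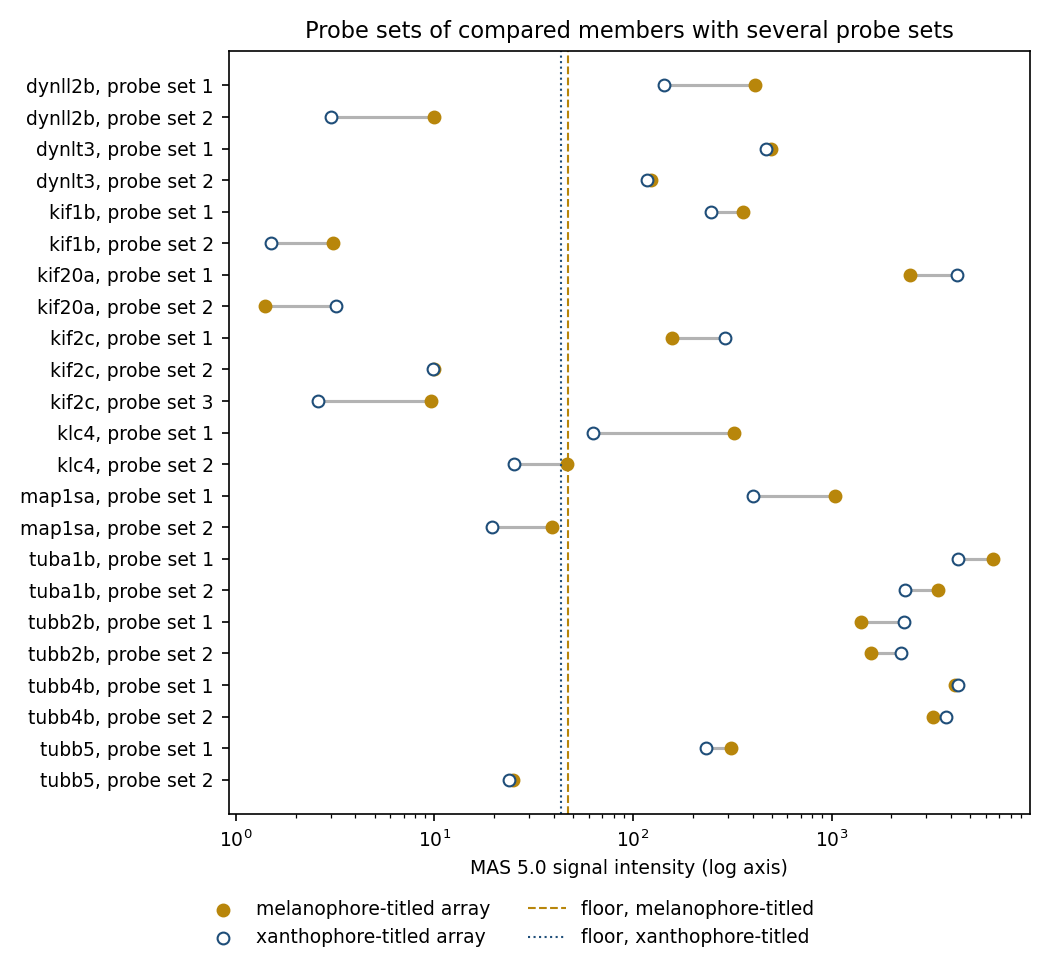
Signals (log axis) of every probe set of the 11 compared members that have several, 1 line per probe set, with filled points for M, open points for X and vertical lines at the floors of 47.2 and 43.5. For tuba1b, tubb2b, tubb4b and dynlt3 all probe sets lie above the floors; for the other 7 genes only 1 does.

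Cytoplasmic dynein is built from heavy, intermediate, light intermediate and light chains. The heavy chain dync1h1, which holds the motor, lay under the floor on both arrays with both of its probe sets (16.5 and 36.1, 16.3 and 28.3), so the arrays give no ratio for it. The light intermediate chain dync1li2, which links the motor to cargo adaptors, stood at 3623 and 3379. Its paralogue dync1li1 was under the floor at 17.5 and 28.8. The intermediate chain dync1i2b was dim at 93.4 and 52.5. The subunit dync2i2, of the dynein that works inside cilia, stood at 53.2 and 36.8.

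Dynein light chains had 6 genes, of which 4 were compared. As deposited all 4 had a ratio above 0, beside 72.8% of all compared genes. Once the spike-ins were set equal 3 of 4 did, beside 1605 of the 2929 compared genes. The largest gap was that of dynll2b, at 411 and 143, which is 2.87-fold. After scaling to the spike-ins it was 2.20-fold, and it fell just under 2-fold (1.95) only with the medians of bright probe sets set equal. Its second probe set was under the floor at 9.9 and 3.0. The closely related dynll1 stood at 1175 and 722, and dynlrb1, of the roadblock type, at 1607 and 993. Their log2 ratios were 0.70 and 0.69, and 0.32 and 0.31 after scaling to the spike-ins. The Tctex-type chain dynlt3 was at 498 and 470.3 by one probe set and 123 and 118 by another, and its sign changed with the scaling.

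The median of the 4 light chains was 0.70, which is 0.24 above that of all compared genes. No test of this distance was possible. Of the others, dynlt2b was dim at 124 and 74.1 and dynlt5 was under the floor. Light chains of the dynll type also bind partners other than dynein, so their level is no measure of the motor.

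Dynactin, the complex that lets dynein run far along a microtubule, had 2 genes on the array, both compared. The subunit dctn2 (dynamitin) stood at 464 and 692, 1.49-fold brighter on X, or 1.94-fold once the spike-ins were set equal. It passed 2-fold on X with quantile normalization, equal bright medians and removal of the lowess trend. With ribosomal protein genes set equal it was 1.06-fold. The pointed-end subunit dctn5 was at 743 and 679. Over the 12 compared motor genes the median log2 ratio was 0.15, or -0.23 after scaling to the spike-ins. That is 0.31 below all compared genes as deposited, beside 0.45 below for the tubulins. Whether these distances differ was not tested. With genes admitted from the 50th percentile, the median was 0.34 for motors and 0.12 for tubulins. All members together were also at 0.34 there, a distance of -0.02 to all compared genes. The compared motors include kif20a and kif2c, each read from 1 bright probe set.

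Proteins that bind or regulate microtubules were few. The MAP1 family gene map1sa, whose product binds microtubules in mammals, stood at 1036 and 400, 2.59-fold brighter on M. With the spike-ins set equal it was 1.99-fold. Quantile normalization, equal bright medians and removal of the lowess trend also left it under 2-fold. Its second probe set lay under the floor at 39.1 and 19.6, and its neuronal relative map1aa did so too at 10.0 and 3.6. The end-binding protein mapre1b, which tracks growing ends, stood at 1983 and 1500.2, and mapre1a was dim at 194 and 111.

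Stathmins sequester tubulin dimers, and several are neuronal. None of the 3 was compared: stmn2a stood at 54.6 and 86.6, stmn1b at 11.8 and 17.5 and stmn4 at 3.2 and 17.0. Of 19 nerve and Schwann cell markers named on the array, 11 lay under the floor on both, beside 37.4% of all named genes. The list includes tubb5 and stmn2a, and elavl3 and elavl4 were among the 11. The 3 compared were uchl1 (3022 and 2262), mbpb (499 and 299) and tubb5, all within 2-fold.

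The folding cofactors hand new tubulin to the dimer. The beta tubulin cofactor tbca stood at 325 and 190.2, 1.71-fold brighter on M, or 1.31-fold once the spike-ins were set equal. The alpha tubulin cofactor tbcb was at 1488 and 1259.8. The cofactor tbcc was dim at 119 and 81.7 and tbce under the floor at 18.5 and 17.3. The symbol rule also takes in LC3 genes, which are named for their first isolation with MAP1 and act in autophagy. Of these, map1lc3a stood at 3941 and 3824, map1lc3b at 1518 and 2103, and map1lc3c was dim at 69.5 and 19.4. In the annotation map1lc3a lies next to dynlrb1.

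A wider list held 139 microtubule regulators outside the rule. Of 55 genes named on the array 19 were compared, 2 of them 2-fold brighter on M (21.1% of all compared genes) and 1 on X (6.18%), with a median log2 ratio of 0.32 (-0.06 after scaling to the spike-ins). The pair on M were macf1a, which links microtubules to actin (683 and 240.4), and arl2, a GTPase that works with the tubulin cofactors (358 and 152, and 1.81-fold with the spike-ins set equal). On X it was tacc2, a centrosomal protein (97.4 and 217).

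The dynein regulators ndel1b (3394 and 2302), pafah1b1a (859 and 701), nde1 (526 and 627) and nudc (251 and 209.9) were within 2-fold. The list also holds cnn2 (3886 and 2610.4), which binds actin. The tubulin deacetylase hdac6 was too dim to compare at 150.2 and 55.3.

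Among partner genes of pigment organelle transport outside the microtubule system, 8 of 26 were named on the array and 4 were compared. The GTPases rab32a (2752 and 1091) and rab11a (447 and 187) were 2-fold brighter on M, beside 21.1% of all compared genes. Their relatives rab7a (3463 and 1885) and rab11ba (840 and 529) were not. With the spike-ins set equal, rab32a and rab11a were at 1.94-fold and 1.83-fold. The melanin list also holds rab32a.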

How the data were processed

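The authors' deposited table holds linear MAS 5.0 signal intensity for each probe set and array. MAS5 appears in the submitters' processing notes, and its settings and present or absent calls were not used here. Controls (115 probe sets) served for scaling alone. Gene symbols are those of the platform annotation and were updated through the gene ID, which changed none of the members. The members and gene lists were chosen with earlier results of these data known.

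All named genes went through the same floor, filter and log2 ratio, so that background counts follow the same rule. By rule, compared members and dim members over a floor were named. Members under both floors, and listed genes that were dim or within 2-fold, were named after their values were seen. No sequence was used here. The counts and medians of the members were recomputed under 5 other scalings, 3 floors, 2 filters and 3 treatments of probe sets, the counts also at other folds, and the 27 compared members' ratios under 12 of these; gene lists and dim members were rescaled to the spike-ins only (Python 3.11.15, numpy 2.4.6, pandas 2.3.3, statsmodels 0.14.6). Leaving out the LC3 genes is an alternative chosen after seeing the data. The steps for single probe sets were also tested on simulated data, without the ribosomal scaling and with shifts in bright probe sets only. With 1 array per title, the number of arrays limits the precision.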

Additional observations from a re-analysis of the deposited data

How the results depend on the processing

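The signs of the group medians depended mainly on the scaling. The median log2 ratio of the compared members turned from 0.16 to -0.15 with quantile normalization, -0.39 with equal bright medians, -0.22 with the spike-ins and -0.18 with the lowess trend removed, and was 0.66 with ribosomal protein genes set equal. In the same order the tubulins' median of 0.01 became -0.22, -0.55, -0.37, -0.25 and 0.51, and the motors' median of 0.15 became -0.24, -0.41, -0.23, -0.26 and 0.65. The tubulins' median was also -0.020 when genes were compared from the 90th percentile and when each probe set counted on its own. Members 2-fold brighter on M and on X were 3 and 1 as reported. Shares of all compared genes follow in brackets, M first. The counts were 2 and 4 with quantile normalization (7.97% and 11.2%) and 1 and 6 with equal bright medians (6.84% and 13.5%). They were 9 and 0 with equal ribosomal protein genes (48.9% and 3.88%) and 2 and 3 with the spike-ins (9.24% and 10.4%). With the lowess trend removed they were 2 and 4 (7.86% and 11.3%). From the 90th percentile, where 16 members were compared, they were 1 and 0. No share of all compared genes is given for that filter, so these counts are not set against a background. As deposited, the counts at 1.5-fold were 8 and 3 (41.7% and 11.0%) and at 4-fold 1 and 0 (3.72% and 2.15%). Other floors, the median over probe sets and leaving out the LC3 genes left both counts as they were.

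No paired analysis was possible because each title has 1 array. Signals near the floor limit what can be read: 20 members have no ratio, and for 7 of the 11 compared members with several probe sets the value rests on 1 of them. The compared members outside these 11 have only 1 probe set each.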
